A study of Mus musculus with 2 samples.

Results

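Pericytes are the mural cells that wrap lung capillaries. Here they are 105 of 4581 single cells, 54 of 1770 in the Cherry_Positive library and 51 of 2811 in the Cherry_Negative library. They were chosen on raw UMIs, the counted molecules of a gene. Cox4i2, Higd1b, Ndufa4l2, Gucy1a3 and Notch3 were summed, and a cell was taken where this pericyte sum was at least 4, larger than each of 3 like sums for alveolar fibroblasts, adventitial fibroblasts and myofibroblasts, and larger than the sum of the endothelial genes Pecam1 and Cdh5. Levels of these genes are therefore given as a description.

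The libraries hold CD45- cells (CD45 marks leukocytes) sorted from mouse lungs taken 7 days after intravenous injection of Labelling-4T1 cells. 4T1 is a mouse mammary carcinoma line, and the labelling version is known to release a cell-penetrating mCherry protein that cells near the tumour cells take up, so that the sort separates cells with the label from cells without it in the same kind of lung. Both groups share the injection and the day, each is 1 library, and the labels give neither strain, sex, age nor how many mice were pooled. With 1 library a group no test was possible, and every interval below is a 95% interval for counting error only, which does not cover the spread between cells or between mice.

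In the lung, pericytes share the basement membrane of the capillary with the endothelial cell. They answer endothelial PDGF-B through the receptor Pdgfrb, signal through Notch3, and set vessel tone through nitric oxide, soluble guanylate cyclase and cGMP. Lung pericytes are also known for subunit variants of the respiratory chain, Cox4i2 in complex IV and Ndufa4l2. Like other stromal cells they can answer interferons, which induce guanylate-binding proteins, immunity-related GTPases, antigen presentation by MHC class I and the chemokines Cxcl9 and Cxcl10, which draw activated T cells.

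The pericyte sum ran from 5 over a median of 22 to 72 UMIs in Cherry_Positive and from 4 over 23 to 82 in Cherry_Negative pericytes. Just inside the limit, 3 and 4 cells had sums of 4 to 7. Just outside, 4 and 1 cells had the pericyte sum largest at 3 UMIs, 12 and 9 cells reached 4 UMIs but had another sum as large or larger, and 2 and 3 cells were kept out by Pecam1 and Cdh5. In the Cherry_Positive library 3.05% of cells were pericytes (2.30 to 3.96), and in the Cherry_Negative library 1.81% (1.35 to 2.38). Among cells of the 4 mesenchymal classes they were 4.40% (3.32 to 5.70) and 5.22% (3.91 to 6.81). The sort by label and CD45 and the dissociation set these shares, so they are not shares of the lung.

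Cherry_Positive pericytes held 1969 to 11131 UMIs with a median of 3193.5, and Cherry_Negative pericytes 1462 to 10865 with a median of 2031. Summed, these were 200582 and 135154 UMIs, so counting error is smaller in the first. All levels are CPM, the UMIs of a gene scaled to the total UMIs of the summed cells. The libraries shared 13 barcodes, none of them a pericyte. The sources name no doublet removal, and none was done here.

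Some cells carried RNA of other cell types. The 12 endothelial markers summed to 414 CPM in Cherry_Positive and 2701 CPM in Cherry_Negative pericytes. In Cherry_Positive pericytes Tie1 and Emcn were at 0, and in Cherry_Negative pericytes none was. At least 10 of these UMIs were found in 1 and 6 cells, and the top 6 Cherry_Negative cells held 81.9% of them. The 8 smooth muscle markers summed to 2049 and 2671 CPM, with 20 or more UMIs in 3 and 6 cells, with Cnn1 at 0 in both and Actg2 at 0 in the Cherry_Positive library. The 12 epithelial markers gave 568 and 28952 CPM, with Epcam, Cdh1, Sftpd, Lamp3, Napsa and Cldn18 at 0 in Cherry_Positive and none at 0 in Cherry_Negative pericytes. In the Cherry_Negative library 1 cell held 3537 of these UMIs, 2935 of them Sftpc, the surfactant gene of type 2 alveolar cells, beside a pericyte sum of 10, and the next cell held 24. That cell also held 262 of the 279 Lyz2 UMIs. Epithelial UMIs were otherwise low and widespread, with a median of 2 per Cherry_Positive and 6 per Cherry_Negative pericyte. Ptprc, which encodes CD45, was at 0 in both, and 6 carcinoma markers, 5 keratins and Epcam, summed to 19.9 and 29.6 CPM.

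**Figure D1:**
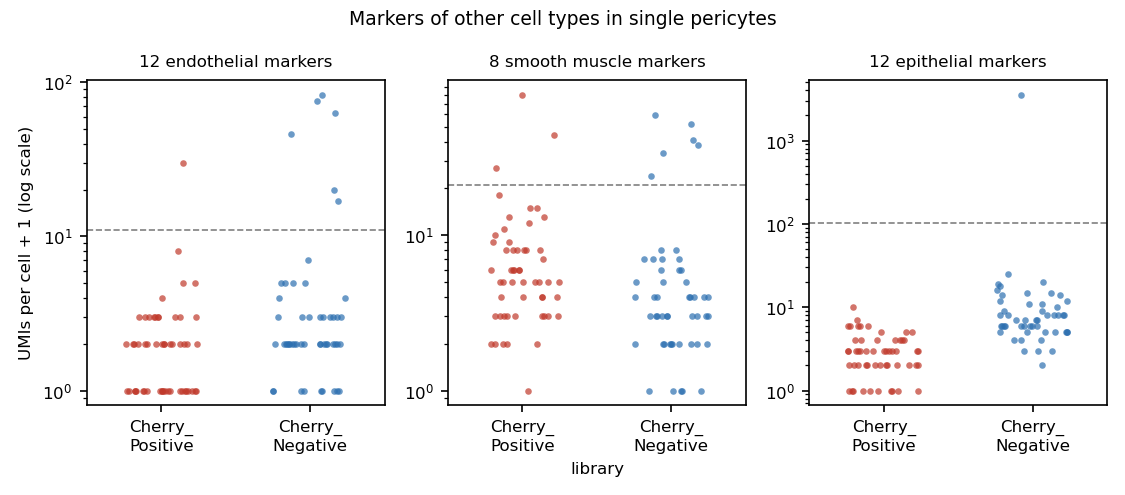
UMIs of endothelial, smooth muscle and epithelial marker sets in each pericyte (points, 54 Cherry_Positive and 51 Cherry_Negative; log axis of UMIs + 1, with sideways scatter only for display). Dashed lines stand at 10, 20 and 100 UMIs; 4 Cherry_Positive and 12 Cherry_Negative cells lie on or above at least 1 line.

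Because 12 Cherry_Negative cells with 39.8% of that library's pericyte UMIs lie on or above these limits, against 4 Cherry_Positive cells with 13.1%, counts and main values are given for all pericytes and also for the 50 and 39 cells left without them (the smaller set), which hold 174239 and 81359 UMIs. The limits were chosen after the values were seen, and the part of these cells in any difference was not tested except by leaving them out.

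What pericytes shared beyond the chosen genes was described against alveolar fibroblasts (598 and 582 cells), adventitial fibroblasts (317 and 184) and myofibroblasts (258 and 160), each taken by the same form of rule. In these classes cells with RNA of other types were not left out. The Cherry_Negative alveolar fibroblasts held epithelial RNA, with Sftpc at 124661 CPM against 3398 in the Cherry_Positive ones and 230150 in Cherry_Negative epithelial cells. Their levels include this RNA, whose part in any comparison was not tested. A gene counted as higher where it reached at least 50 CPM in pericytes and at least 4 times the level of each of the 3 classes in both libraries. Of 2631 genes with enough signal 123 (4.68%) met this, 5 of them the chosen genes. The cells were picked by genes that vary together with others, so this is a description of the class and no test of it.

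Among the chosen genes, Cox4i2, the variant of cytochrome c oxidase subunit 4 that is known from lung and hypoxic tissue, ran at 0 to 41 UMIs per Cherry_Positive cell (median 10) and 1 to 49 per Cherry_Negative cell (median 10), or 3350.3 and 4336 CPM, against at most 47.7 and 70.3 CPM in the other 3 classes. Higd1b, a small mitochondrial membrane protein of the hypoxia-inducible domain family, stood at 1516 and 1931 CPM against at most 1.56 and 2.01. Ndufa4l2, the hypoxia-linked relative of Ndufa4, stood at 843 and 1435 CPM. Gucy1a3, the alpha subunit of the nitric oxide receptor, stood at 1346 and 1687 CPM, and Notch3 at 309 and 451 CPM. The first 4 of these genes were seen in most cells of both libraries, and Notch3 in 37 of 54 and 34 of 51.

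Genes that the rule did not use filled in the same picture of a capillary pericyte. Postn, a secreted matricellular protein, had 0 to 29 UMIs per Cherry_Positive cell (median 7) and 0 to 20 per Cherry_Negative cell (median 6), which is 2258 and 2582 CPM against at most 104 and 73.4 CPM in the other classes. Pdzd2, a large protein with PDZ domains, stood at 1730.0 and 2878 CPM against at most 38.9 and 55.9. Postn was found in 52 of 54 and 47 of 51 cells, and Pdzd2 in 48 of each. These are the 2 given markers outside the rule. They came with the rule, which was chosen with earlier results of these data known. Their levels therefore describe the class and are no test of its label.

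The PDGF receptor Pdgfrb was at 693 and 880.5 CPM against at most 89.8 and 66.8. Vtn, which encodes the adhesive glycoprotein vitronectin, was at 284 and 548 CPM against at most 0.955 and 3.29, and the neuronal growth protein gene Gap43 at 434 and 503 CPM against at most 0.933 and 4.38. Emid1, Clstn2, Fam162b, Fam101a, the somatostatin receptor Sstr2 and the calcium sensor Vsnl1 showed the same contrast, each at most 8.04 CPM in any other mesenchymal class. Of the 22 genes of the pericyte identity list 17 had enough signal and 14 were at least 4-fold higher, beside 4.68% of all genes. Markers known from pericytes of brain were near 0: Rgs5 had 3 and 1 UMIs in all, Abcc9 was at 0 and 14.8 CPM, and Kcnj8 was at 24.9 and 14.8 CPM against 316 and 215 in myofibroblasts. Pdgfra, the PDGF receptor of fibroblasts, was at 0 in both libraries against 284 and 172 CPM in alveolar fibroblasts.

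Genes of vessel tone were high as well. Leaving out Gucy1a3, which took part in choosing the cells, 7 of 8 vasoactive receptors, channels and cGMP genes with enough signal were at least 4-fold higher. Over all genes this share was 4.68%. The list without Gucy1a3 summed to 2986 and 3418 CPM in pericytes against 695 and 840.1 in myofibroblasts, the next highest class. Gucy1b3, the beta subunit that pairs with Gucy1a3, stood at 1167 and 1361 CPM against at most 44.8 and 58.3. Pde5a, the cGMP phosphodiesterase, stood at 778 and 910.1 CPM against at most 70.8 and 90.4. The potassium channel gene Kcnk3 was at 239 and 377 CPM, the angiotensin receptor Agtr1a at 145 and 163, and the cation channel gene Trpc6 at 105 and 74.0. The endothelin receptor Ednra, at 179 and 170.2 CPM against at most 94.6 and 64.7, was the member that missed the limit.

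The contractile list did not mark the class, with only Ppp1r14a, an inhibitor of myosin phosphatase, past 4-fold of 15 members with enough signal. Its sum was 8789 and 10477 CPM in pericytes against 14744 and 21269 in myofibroblasts. Desmin (Des), the muscle filament that pericytes share with smooth muscle, was at 1072 and 843 CPM against 649 and 621 in myofibroblasts, and Myh11, the smooth muscle myosin, was at 39.9 and 66.6 CPM. In the list of signals between pericytes and endothelium 5 of 18 genes passed when the chosen gene Notch3 is left out, namely Pdgfrb, the Notch target Nrarp, the N-cadherin gene Cdh2 and the connexin genes Gja4 and Gjc1. In the basement membrane list the collagen IV genes Col4a1 and Col4a2 passed, 2 of 9. Of all genes with enough signal 4.68% passed.

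Of 1798 genes with enough signal in the other classes 36 (2.0%) were at least 4-fold lower in pericytes, 1 of them Dpt, a gene of the adventitial fibroblast sum in the rule. Apoe, the lipid carrier, was at 49.9 and 88.8 CPM against up to 2589 and 2811 in the other classes. Sod3, the extracellular superoxide dismutase, was at 49.9 and 51.8 CPM against up to 2031 and 1288, and Loxl1, which cross-links elastin, at 9.97 and 7.40 against up to 562 and 653. The collagen-processing helper Pcolce2 and the small proteoglycan Ogn had 0 UMIs in Cherry_Positive pericytes. Elastin (Eln), Col6a3 and Timp1 of the interstitial matrix list, and C3, C4b and Cd59a of the complement list, were also at least 4-fold lower.

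**Figure D2:**
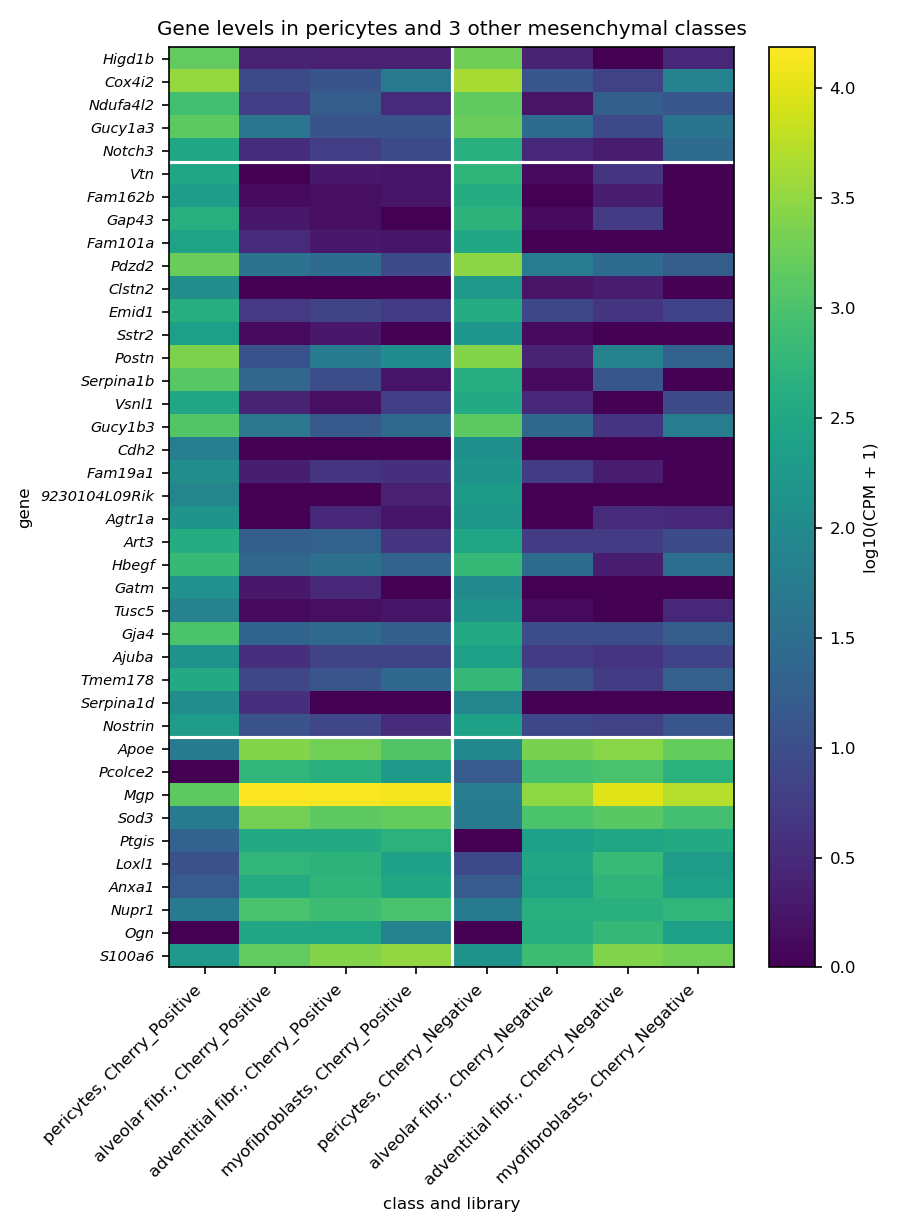
Levels, as log10(CPM + 1), of the 5 chosen genes (top), 25 other genes higher in pericytes (middle) and 10 lower (bottom) in 4 mesenchymal classes of each library. The pericyte columns are mostly bright in the upper blocks and mostly dark in the lowest in both libraries. Exceptions include Mgp in Cherry_Positive pericytes, 75.3% of whose UMIs lay in 1 cell. Another is S100a6, at 174 and 133 CPM in pericytes, above Cdh2 of the middle block at 59.8 and 126 CPM.

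The second question is which transcripts differed between pericytes with and without the label. Of 1945 genes with at least 30 UMIs in both libraries together and 20 CPM in either, 141 (7.25%) were at least 2-fold higher in Cherry_Positive pericytes and 76 (3.91%) at least 2-fold lower, and the median log2 ratio was -0.004. Without the cells that carried other RNA 1512 genes remained, with 143 (9.46%) higher and 57 (3.77%) lower. The smaller set is part of the larger. They shared 105 higher genes, of 141 and 143, and 16 lower genes, of 76 and 57, so the lower side held mostly different genes.

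Chemokine and interferon genes led the higher side. Cxcl9 had 363 UMIs in 24 of 54 Cherry_Positive cells, with 0 to 96 per cell, and 9 UMIs in 2 of 51 Cherry_Negative cells, 8 of them in 1 cell. That is 1809.7 against 66.6 CPM, a ratio of 27.2 (14.2 to 59.9). Cxcl10 had 1039 UMIs in 25 cells, with 0 to 161 per cell, and 47 in 3 cells, 33 of them in 1 cell, which is 5179.9 against 348 CPM and a ratio of 14.9 (11.1 to 20.4). The median cell of both libraries held 0 UMIs of either gene, and the groups overlapped at 0. Thinned to 1400 UMIs a cell, the expected share of cells with Cxcl10 was 39.0% and 4.85%, against 14.5% and 0.613% in epithelial cells. Cxcl9 was at 37.1% and 3.27%, against 3.48% and 0.125%. Epithelial cells serve as a level for free RNA and for other sources. They were deeper, with medians of 8050 and 7740 UMIs, so thinning can lower this level. Without thinning, 46.3% of Cherry_Positive pericytes and 45.2% of the 31 Cherry_Positive epithelial cells held Cxcl10. Cxcl9 was found in 44.4% and 16.1% of them. The part of free RNA in these shares was not tested.

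Ccl2, which draws monocytes, had 192 UMIs in 15 cells against 6 in 2 cells, and 87 of the 192 came from 1 cell. That cell held 0 UMIs of Cox4i2, Higd1b, Ndufa4l2, Postn and Pdzd2, and met the rule on 8 Gucy1a3 and 1 Notch3 UMIs. It stayed in the smaller set. The Ccl2 ratio was 21.6 (9.73 to 59.5). Without thinning, Ccl2 was found in 27.8% of Cherry_Positive pericytes and in 35.5% of Cherry_Positive epithelial cells. Ccl7, its neighbour in function, had 33 against 0 UMIs, but 30 lay in 1 cell. Of the 34 chemokine and cytokine genes 7 had enough UMIs, 5 of these were at least 2-fold higher, and Lcn2 was lower with 2 against 28 UMIs. In the smaller set 4 of 6 were higher and none lower. The shares of all measured genes higher were 7.25%, and 9.46% in the smaller set. There Cxcl14 no longer passed, at 1.501 in place of 2.26, and Lcn2 had 2 against 3 UMIs, so its call rested on the cells with other RNA. Cxcl1 did not pass the limit, with 823 against 644 CPM. Without cells with other RNA the ratios were 124 (22.1 to 4924) for Cxcl9, now over 1 Cherry_Negative UMI, 11.8 (8.35 to 17.1) for Cxcl10 and 81.7 (14.5 to 3246) for Ccl2, again over 1 UMI. Of the 47 Cherry_Negative Cxcl10 UMIs 46 lay in 2 cells with a pericyte sum of 6, near the limit of the rule. With a pericyte sum of at least 8, which leaves 51 and 47 cells, the log2 ratio was 8.64 in place of 3.88 for Cxcl10 and 8.73 in place of 4.69 for Cxcl9. The Cherry_Negative side then held 1 Cxcl10 UMI and no Cxcl9 UMI. The size of both values is therefore set largely by the 0.5 added to each sum.

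Cxcl9 and Cxcl10 are neighbours on chromosome 5 (GRCm38, 92321347 to 92328079 and 92346638 to 92348889, both on the minus strand), and the windows from 250 bases before to 50 bases after their RefSeq starts (GRCm38.p6) are shown with those of the GTPase genes Igtp and Gbp2b because these genes stood high together. Capitals mark matches to GAAA-NN-GAAA, where N is any base, the core of the interferon-stimulated response element bound by IRF factors, and to TTC-NNN-GAA, the gamma-activated site, searched on both strands. The windows are chr5:92348840-92349139 on the minus strand for Cxcl10, chr5:92328030-92328329 on the minus strand for Cxcl9, chr11:58199306-58199605 on the plus strand for Igtp and chr3:142594597-142594896 on the plus strand for Gbp2b.
Cxcl10: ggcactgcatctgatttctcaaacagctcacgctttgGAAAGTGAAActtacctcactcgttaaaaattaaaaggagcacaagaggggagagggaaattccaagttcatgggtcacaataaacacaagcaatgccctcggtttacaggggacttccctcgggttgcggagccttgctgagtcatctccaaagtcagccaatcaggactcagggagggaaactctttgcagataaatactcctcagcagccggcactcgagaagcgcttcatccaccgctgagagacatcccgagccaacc
Cxcl9: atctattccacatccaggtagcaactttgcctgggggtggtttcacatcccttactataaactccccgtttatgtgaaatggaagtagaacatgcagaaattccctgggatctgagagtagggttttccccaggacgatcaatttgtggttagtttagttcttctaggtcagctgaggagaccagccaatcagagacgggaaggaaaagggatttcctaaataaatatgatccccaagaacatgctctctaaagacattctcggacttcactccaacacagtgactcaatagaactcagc
Igtp: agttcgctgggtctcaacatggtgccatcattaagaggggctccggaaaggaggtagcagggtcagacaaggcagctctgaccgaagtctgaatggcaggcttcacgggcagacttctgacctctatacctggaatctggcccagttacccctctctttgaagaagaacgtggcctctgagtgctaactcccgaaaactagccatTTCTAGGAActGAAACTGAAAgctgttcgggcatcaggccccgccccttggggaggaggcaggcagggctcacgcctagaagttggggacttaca
Gbp2b: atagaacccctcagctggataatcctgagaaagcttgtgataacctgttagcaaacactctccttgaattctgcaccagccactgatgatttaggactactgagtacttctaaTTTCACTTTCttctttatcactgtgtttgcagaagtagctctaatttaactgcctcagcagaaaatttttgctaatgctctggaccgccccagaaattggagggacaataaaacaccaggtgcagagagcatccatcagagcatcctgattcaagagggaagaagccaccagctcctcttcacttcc

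The Cxcl10 window held GAAAGTGAAA at position -213 counted from the start, and the Cxcl9 window held neither motif. Igtp held TTCTAGGAA at -45 and GAAACTGAAA at -34, 2 motifs that do not overlap, and Gbp2b held the first motif on the opposite strand at -137. Of the 15 genes named on the higher side 11 matched a window by symbol, gene ID or older name. Of these, 6 held the first motif, 4 held the second and 9 held either. Among all 32851 RefSeq windows of this length 3.44% held the first motif and 8.3% the second. A match describes letters and is no proof of a bound site.

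Guanylate-binding proteins and immunity-related GTPases, which coat the vacuoles of intracellular microbes, were next. Gbp4 had 0 to 23 UMIs per Cherry_Positive cell (median 1) and 0 to 6 per Cherry_Negative cell (median 0), and was seen in 32 and 5 cells. It stood at 1102 against 88.8 CPM, a ratio of 12.4 (6.96 to 24.4). Gbp2b was at 798 against 74.0 CPM (ratio 10.8, 5.71 to 22.9) and Gbp3 at 314 against 29.6 CPM (10.6, 3.95 to 40.2). The GTPase gene Iigp1 was found in 41 and 12 cells, with medians of 3 and 0 UMIs, and stood at 2224 against 370 CPM, a ratio of 6.01 (4.48 to 8.22). Igtp and Ifi47 had ratios of 5.46 (3.42 to 9.17) and 5.75 (3.47 to 10.1). In each of these genes the Cherry_Positive values spread from 0 upwards, so the cells of the 2 libraries overlapped at the low end.

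Of the 27 genes of the interferon gamma list 17 had enough UMIs, 16 were at least 2-fold higher and none lower, with a median log2 ratio of 2.1. Without cells with other RNA it was 14 of 15 and a median of 1.83, beside 7.25% and 9.46% of all measured genes higher. Transcription factors of the pathway were among them, with Irf1 at 808 against 259 CPM (ratio 3.12, 2.15 to 4.63) and Irf8 at 523 against 148 (3.54, 2.18 to 6.03). So was Socs1, the feedback inhibitor, at 289 against 44.4 CPM (6.51, 2.82 to 18.5). Gbp7, at 379 against 215 CPM, was the member that missed the limit. Batf3, a transcription factor best known from dendritic cells, had 33 UMIs in 14 cells against 0 UMIs. Set against a floor of 3 UMIs over the Cherry_Negative pericytes, that is a ratio of 7.41, with a lower interval bound of 5.70. Fam26f, listed by RefSeq as Calhm6, was at 573 against 59.2 CPM (9.69, 4.75 to 22.97).

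Type I interferon genes followed, with 10 of 11 members at least 2-fold higher, none lower and a median log2 ratio of 1.24, or 9 of 10 and 1.77 without cells with other RNA. All measured genes gave 7.25% and 9.46% higher. Isg15, a ubiquitin-like modifier, stood at 1027 against 207 CPM (ratio 4.96, 3.33 to 7.64), and Ifit1 and Ifit3, which bind foreign RNA, had ratios of 8.42 (3.09 to 32.1) and 5.15 (2.73 to 10.7). Ifitm3, which blocks viral entry, was at 8904 against 3766 CPM (2.36, 2.14 to 2.61). Reads of near-identical copies such as Gbp2 and Gbp2b, Ifit3 and Ifit3b, or the H2 genes may have been split or dropped in counting, so single values of these genes are uncertain.

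Antigen presentation by MHC class I stood higher as a group, with 13 of 14 members at least 2-fold higher, none lower and a median log2 ratio of 1.40, or 12 of 13 and 1.58 without cells with other RNA. The like shares over all measured genes were 7.25% and 9.46%. The light chain gene B2m had 0 to 140 UMIs per Cherry_Positive cell with a median of 17 and 0 to 43 per Cherry_Negative cell with a median of 3. It was at 6880.0 against 2656 CPM, a ratio of 2.59 (2.30 to 2.92). The heavy chain gene H2-K1 had a ratio of 2.69 (2.19 to 3.33), the non-classical H2-T23, a ligand of inhibitory receptors on NK and T cells, 5.73 (3.67 to 9.36), the peptide transporter Tap1 3.82 (2.05 to 7.75) and the immunoproteasome subunit Psmb9 2.87 (1.73 to 5.02). H2-T22 was the member that missed the limit, with 110 against 111 CPM. Of the MHC class II list only Cd74 had enough UMIs, with 2 against 71, and 65 of the 71 lay in the cell with most of them.

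Complement and adhesion genes gave smaller groups. The complement protease gene C1ra was found in 31 and 4 cells, at 269 against 29.6 CPM (ratio 9.10, 3.35 to 34.6), and Serping1, the C1 inhibitor, was at 1550.5 against 540.1 CPM (2.87, 2.22 to 3.76), so that 2 of 3 measured complement genes passed, as 2 of 3 did in the smaller set. Icam1, the ligand of leukocyte integrins, was at 429 against 133 CPM (3.22, 1.92 to 5.69), and Lgals9 and Lgals3bp passed as well, 3 of 7 in that list and again 3 of 7 in the smaller set. Beside these 2 lists, 7.25% of all measured genes were higher, and 9.46% in the smaller set. The secreted glycoprotein gene Stc1 had 44 UMIs in 12 cells against 1 UMI, with 22 of the 44 in 1 cell, and a ratio of 29.6 (5.05 to 1197). Serpina3g, an inhibitor of cysteine proteases, had a ratio of 7.86 (4.36 to 15.6).

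**Figure D3:**
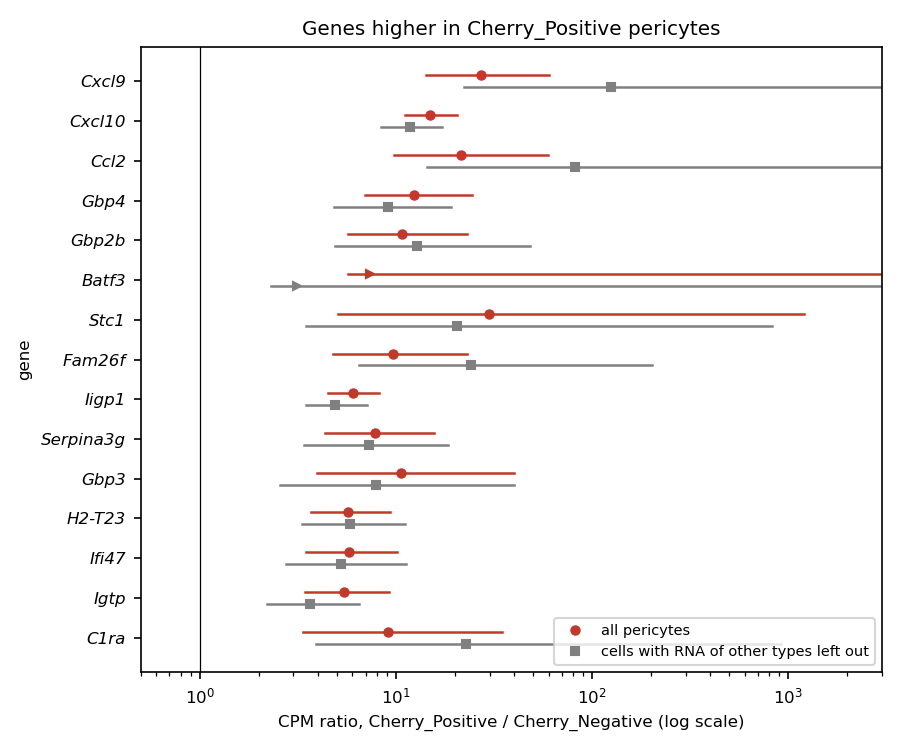
Ratio of CPM, Cherry_Positive over Cherry_Negative pericytes, for the 15 genes named on the higher side (log axis; bars are 95% counting intervals). Red circles are all pericytes, grey squares the 50 and 39 cells without RNA of other types, arrowheads a floor of 3 UMIs where the Cherry_Negative count was 0, and bars that reach the right edge go on beyond it; every interval lies above 1.

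These levels were uneven among Cherry_Positive pericytes. Either Cxcl9 or Cxcl10 was found in 31 of 54 cells and both in 18, against 3 and 2 of 51 Cherry_Negative cells. The top 5 cells held 58.3% of Cxcl10 and 62.5% of Cxcl9 UMIs. The interferon gamma list took 0 to 29.3 of each 1000 UMIs in Cherry_Positive cells with a median of 8.87, and 0 to 19.2 in Cherry_Negative cells with a median of 1.24. Of the Cherry_Positive cells 51 of 54 lay above the Cherry_Negative median and 10 above the highest Cherry_Negative cell. The MHC class I list took a median of 17.0 (0.433 to 55.7) against 4.69 (0.578 to 32.7) per 1000 UMIs, with 46 cells above the Cherry_Negative median. A few Cherry_Negative cells thus reached levels common among Cherry_Positive cells.

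The 15 Cherry_Positive cells with at least 10 Cxcl10 UMIs had a pericyte sum of 5 to 53 UMIs with a median of 16, against 9 to 72 with a median of 27 in the 29 cells without Cxcl10. Their median depth was 3653 against 2963 UMIs. In CPM the pericyte sum was 4264 against 8885, and Postn with Pdzd2 was at 2108 against 4967. The sums of alveolar fibroblast genes, 270 against 402 CPM, and of adventitial fibroblast genes, 444 against 1058 CPM, were lower in them too. The sum of myofibroblast genes was higher in them, at 333 against 235 CPM. Of the 15 cells 2 were among those with RNA of other types. These groups of cells were defined by Cxcl10 after its values were seen, within 1 library, and nothing was tested.

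**Figure D4:**
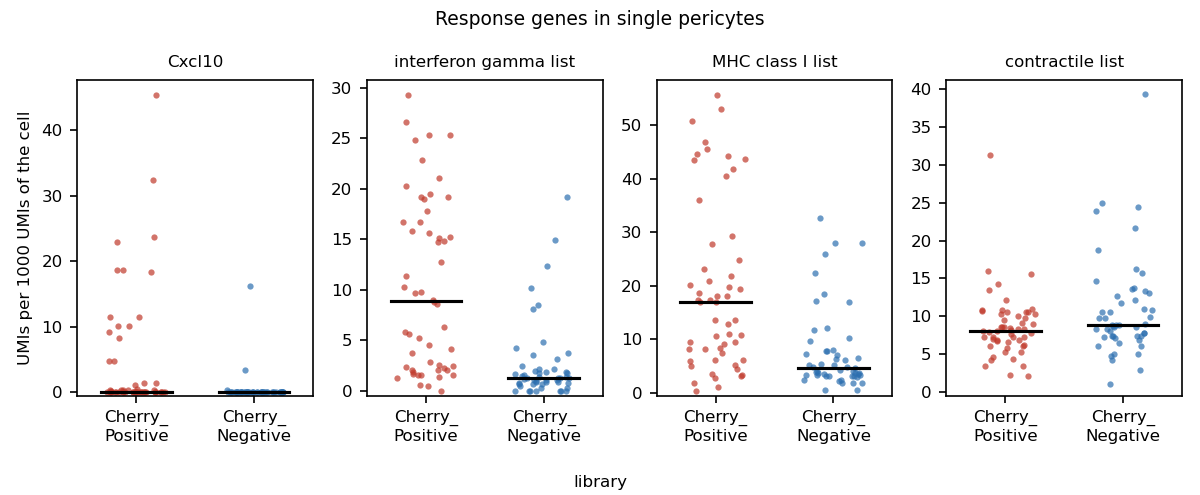
UMIs of Cxcl10 and of 3 gene lists per 1000 UMIs of each pericyte (points; black lines are medians; sideways scatter only for display). Cherry_Positive cells spread from 0 to 29.3 for the interferon gamma list with a median of 8.87, Cherry_Negative cells from 0 to 19.2 with a median of 1.24, and the contractile list had medians of 8.11 and 8.86.

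On the lower side, 14 of the 15 named genes had a higher level in the endothelial cells of the Cherry_Negative library than in its pericytes. Among them were Egfl7, a secreted endothelial factor, with 4 against 52 UMIs (ratio 0.0518, 0.0136 to 0.141), the tight junction gene Cldn5 with 12 against 89 (0.0909, 0.0452 to 0.167), Tmem100 with 8 against 57, the adrenomedullin receptor partner Ramp2 with 14 against 51 and the phosphatase gene Ptprb with 7 against 28. Over the 15 genes, 660 Cherry_Negative UMIs became 129 and 159 Cherry_Positive UMIs became 90 once the cells with other RNA were left out, and 14 of the 15 then had fewer than 30 UMIs in all. Egfl7, Cldn5, Tmem100 and Ramp2 are among the endothelial markers that set which cells were left out, and the part of endothelial RNA in the other genes was not tested further. Further genes were left out of naming because they were at least 10 times higher in another lineage or lay mostly in 1 cell, among them Lyz2, Sftpb, Sftpd, Sftpc and Sftpa1, whose UMIs came mainly from the cell rich in surfactant RNA.

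The exception was 1190002N15Rik, which had 0 to 3 UMIs per Cherry_Positive cell (median 0) and 0 to 4 per Cherry_Negative cell (median 1). It was found in 16 of 54 and 33 of 51 cells, at 120 against 437 CPM, a ratio of 0.274 (0.163 to 0.447). Without the cells with other RNA its ratio was 0.249 (0.145 to 0.418). Thinned to 1400 UMIs the share of cells with it was 16.4% against 47.5%, with 2.39% and 3.14% in epithelial cells. Without thinning the shares were 29.6% against 64.7%, with 16.1% and 13.6% in epithelial cells.

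In the smaller set 14 of the 57 lower genes were among those that set pericytes apart from the other classes. Pdzd2 was at 1923 against 3859 CPM (ratio 0.498, 0.426 to 0.583), where all pericytes gave 0.601 (0.519 to 0.696), so it passed the 2-fold limit only in the smaller set. Vtn was at 316 against 676 CPM (0.467, 0.315 to 0.691), where all pericytes gave 0.519 (0.361 to 0.743). Tbx2, a T-box factor of lung mesenchyme, was at 505 against 1131 CPM (0.447, 0.330 to 0.605). Tmem178 had a ratio of 0.460 (0.323 to 0.654) and the lipase gene Lipg 0.368 (0.211 to 0.634). In this set the pericyte identity list had 0 genes higher and 2 lower of 14 with a median log2 ratio of -0.53, beside -0.02 over all genes. With all pericytes it was 0 and 0 of 17, with a median of 0.03.

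The genes that set pericytes apart from the other classes can be followed the same way, though they were chosen on these cells. Of the 118 outside the rule 101 had enough UMIs. In all pericytes 6 were at least 2-fold higher and 6 lower, beside backgrounds of 7.25% and 3.91%. Without cells with other RNA 4 were higher and 14 lower of 87, beside 9.46% and 3.77%. Higher in both sets were Serpina1b, which encodes an alpha-1-antitrypsin, at 1256 against 407 CPM (ratio 3.09, 2.30 to 4.21), the connexin Gja4, the antiviral Ifitm1 at 3026 against 1258 CPM (2.41, 2.03 to 2.87), and Il18bp, which neutralises interleukin-18, at 189 against 66.6 CPM (2.85, 1.35 to 6.69). Serpina1b has near-identical copies, which makes its value uncertain.

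Contractile genes turned with the cells counted. Smooth muscle actin (Acta2) was found in 21 and 8 cells, at 404 against 725 CPM in all pericytes, a ratio of 0.557 (0.410 to 0.755). Without cells with other RNA it was at 207 against 49.2 CPM, a ratio of 4.20 (1.51 to 16.3) over 4 Cherry_Negative UMIs. Transgelin (Tagln) moved from 0.579 (0.428 to 0.781) to 1.56 (0.860 to 2.98), and Mustn1 from 0.377 (0.181 to 0.754) to 2.1 over 9 and 2 UMIs. The limit that defines these cells uses smooth muscle markers, Acta2, Tagln, Des and Mustn1 among them, so the second values hold only for cells low in those genes. Des had ratios of 1.27 (1.01 to 1.61) and 0.874 (0.660 to 1.17). As a list, 0 of 14 contractile genes were 2-fold higher and 1 lower, then 2 higher and 0 lower of 12. Backgrounds were 7.25% higher and 3.91% lower, then 9.46% and 3.77%.

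In the signalling list Gja4, the connexin of gap junctions to endothelium, had 200 UMIs in 38 cells against 47 in 26 cells. That is 997 against 348 CPM, a ratio of 2.87 (2.08 to 4.03), and 2.74 (1.87 to 4.15) without cells with other RNA. Timp3, a metalloproteinase inhibitor bound to matrix, was at 329 against 118 CPM (2.78, 1.59 to 5.14). These were 2 of 16, beside 7.25% of all genes, and none was lower. In the smaller set both passed again, 2 of 13, and the connexin Gjc1 was lower, at 0.451 (0.258 to 0.785). With all pericytes Pdgfrb had a ratio of 0.787 (0.612 to 1.01) and Notch3 one of 0.685 (0.473 to 0.992). In the smaller set Pdgfrb came to 0.618 (0.470 to 0.814). Vasoactive genes had 0 higher and 0 lower of 9, and of 7 in the smaller set. With all pericytes Gucy1b3 was at 0.857 (0.703 to 1.05) and Pde5a at 0.855 (0.670 to 1.09). In the smaller set they were at 0.636 (0.516 to 0.787) and 0.732 (0.558 to 0.964). The median log2 ratio of the vasoactive list was -0.18 with all pericytes, beside -0.004 over all genes. In the smaller set it was -0.61, beside -0.02.

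Among basement membrane genes Nid1, which links laminin to collagen IV, was at 354 against 118 CPM (2.99, 1.72 to 5.51), 1 of 8 in either set. With all pericytes Col4a1 had a ratio of 1.33 (1.09 to 1.63) and Sparc 1.08 (0.979 to 1.199). In the smaller set Col4a1 came to 0.986 (0.788 to 1.24). Among interstitial matrix genes 4 of 16 passed, beside 7.25% of all genes. They were the membrane collagenase Mmp14 (3.22, 1.55 to 7.51), the protease Adamts1 (4.38, 1.52 to 17.3), Ctgf, a target of YAP and TGF-beta (2.16, 1.46 to 3.28), and the activin inhibitor Fst (2.13, 1.09 to 4.49). In the smaller set 3 of 14 passed and Adamts1 was no longer measured, at 21 against 3 UMIs. Col1a1 and Col3a1 had ratios of 1.31 (0.870 to 2.01) and 1.03 (0.664 to 1.61).

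Of 8 measured mitochondrial paralogs none passed in either direction, with Cox4i2 at 0.773 (0.691 to 0.865), its common form Cox4i1 at 0.733 (0.583 to 0.923) and Ndufa4l2 at 0.587 (0.475 to 0.725). Without cells with other RNA Ndufa4l2 came to 0.483 (0.381 to 0.613). Cox4i2, Ndufa4l2 and Higd1b took part in choosing the cells. In the glycolysis and hypoxia list Hif1a was higher on 24 against 6 UMIs, and Epas1, which encodes HIF-2 alpha, was lower at 354 against 747 CPM (0.474, 0.345 to 0.648), a ratio that came to 0.562 (0.378 to 0.839) in the smaller set, where 0 of 6 measured members passed either way. Immediate early and stress genes, which dissociation can raise, had 2 of 21 higher, Klf6 and Mt2, a share near the background of 7.25%, and 0 lower, with Fos at 0.920 (0.809 to 1.05). In the smaller set Atf3, Klf6 and Mt2 were higher and Jund was lower, at 0.467 (0.361 to 0.604). Of 19 cell cycle genes only Tubb5 and H2afz had enough UMIs, and neither passed.

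Set beside the other mesenchymal classes, the Cherry_Positive level of 13 of the 15 named higher genes was highest in pericytes, and Ccl2 and C1ra were the exceptions. The 15 genes were chosen for their high ratio in pericytes, which favours such a count. No like share over all genes was computed, so the count is a description. Ccl2 was at 957 CPM in Cherry_Positive pericytes against 2254 in alveolar fibroblasts and 2075 in myofibroblasts. The interferon gamma list summed to 11018 CPM in Cherry_Positive pericytes against 6891 in alveolar fibroblasts, 5434 in adventitial fibroblasts and 5061 in myofibroblasts, and to 2493 CPM in Cherry_Negative pericytes against 1699, 3802 and 1729. The MHC class I list summed to 21059 CPM against 12920.5, 9785 and 13202, and without the label to 7961 against 4987, 6578 and 5839. The Cherry_Negative alveolar fibroblast sums include the cells with epithelial RNA.

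The ratio between libraries was above 1 in all 3 other classes for 13 of the 15 genes. The exceptions were Stc1, at 0.629 (0.249 to 1.67) in adventitial fibroblasts, and Serpina3g, at 0.592 in myofibroblasts. The Cxcl10 ratio of 14.9 in pericytes lay below 59.0 (50.8 to 68.8) in alveolar fibroblasts and 31.1 (23.2 to 42.7) in adventitial fibroblasts and above 7.61 (6.66 to 8.73) in myofibroblasts. H2-T23 had 5.73 in pericytes, 3.86 (3.45 to 4.32) in alveolar 1.78 (1.497 to 2.13) in adventitial fibroblasts and 3.11 (2.43 to 4.04) in myofibroblasts. Timp3 stood apart in sign, with 2.78 in pericytes against 0.893 (0.818 to 0.974), 0.522 (0.483 to 0.565) and 0.629 (0.525 to 0.756) in alveolar fibroblasts, adventitial fibroblasts and myofibroblasts. Differences between classes were not tested, and cells with RNA of other types were not left out of the other 3 classes.

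**Figure D5:**
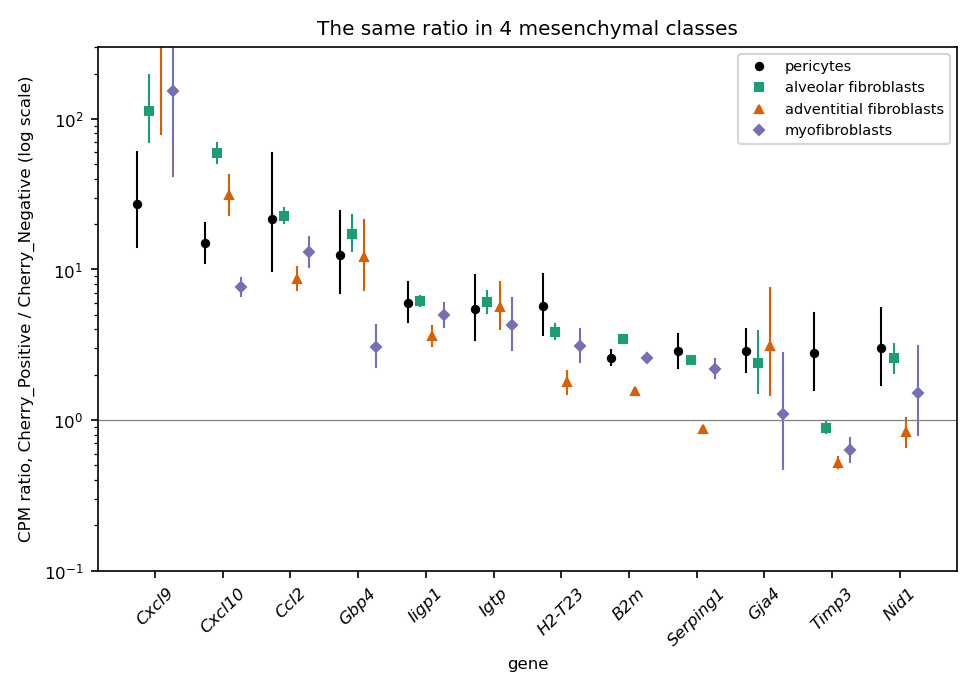
Ratio of CPM, Cherry_Positive over Cherry_Negative, for 12 genes in pericytes and 3 other mesenchymal classes (log axis; bars are 95% counting intervals, cut at the edges of the plot). Adventitial Cxcl9 had 0 Cherry_Negative UMIs and shows a bar only; chemokine and GTPase ratios lie above 1 in every class, and Timp3 lies above 1 in pericytes only.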

How the data were processed

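Single cells were captured with Chromium 3′ kits and sequenced on a HiSeq4000, per the labels' protocols. The deposited values are raw UMI counts per gene and cell barcode, made by the authors; their tools, per the submitters' processing notes, included Cell Ranger 2.1.1, Seurat 4.0.2 and R 4.0.3, with the mm10 genome and no role given for each. No source used here says whether animals were pooled or doublets removed, and no doublet caller was run here, so cells with RNA of several types were counted and left out as an alternative.

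Of 1826 and 2861 barcodes in the deposited files, holding 10094853 and 11632459 UMIs, cells with at least 500 genes and at most 10% mitochondrial UMIs were kept (1770 and 2811). Within a library, all UMIs of a class were added up and scaled to CPM. Ratios carry the interval of the matching binomial share, cell shares the Clopper-Pearson interval. A gene at 0 was set against a floor of 3 UMIs. A list's median log2 ratio had 0.5 added to each sum. Other groups of cells (endothelial, epithelial) came from their markers on raw UMIs. Shares of cells with a gene were also computed for each cell thinned to 1400 UMIs.

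Named genes were the first 15 each way by the interval bound nearest 1, leaving out mitochondrial, ribosomal protein, haemoglobin and immunoglobulin genes, the chosen genes, genes at least 10 times higher in endothelial, epithelial or leukocyte cells, and genes with most of their UMIs in 1 cell. For the class profile they were the first 25 higher and 10 lower genes. Members of the 17 gene lists and genes the results turn on were named beside them. The pericyte rule and the lists were chosen with earlier results of these data known. Alternatives changed the cell filter, the pericyte rule, the gene minimum and a subtraction of free RNA, and those that leave out cells with RNA of other types were added after seeing the data. The ratio and its interval were checked on simulated counts with counting error only. That simulation had no spread between cells, so it does not cover genes whose UMIs lie in few cells. Gene positions are from the GENCODE M21 annotation of GRCm38 and promoter windows from RefSeq. Tools were Python 3.11.15, numpy 2.4.6, scipy 1.17.1, pandas 2.3.3 and matplotlib 3.10.9. The result for 1 gene is not reported here.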

Additional observations from a re-analysis of the deposited data

Results flagged for a closer look

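For 3 genes the libraries differed at least 2-fold in opposite directions in pericytes and in another mesenchymal class, with intervals on opposite sides of 1 and at least 30 UMIs in each. Genes mostly in 1 cell or at least 10 times higher in another lineage were left out, and genes with smaller opposite differences, such as Timp3, are not counted. The difference between classes was not tested. Cells with other RNA were left out among pericytes only. Cherry_Negative alveolar fibroblasts held Sftpc at 124661 CPM, against 3398 in Cherry_Positive ones. Cherry_Negative myofibroblasts held the endothelial genes Cldn5 and Egfl7 at 247 and 239 CPM, against 43.5 and 21.0 in Cherry_Positive ones. The part of such RNA in the ratios of these classes was not tested. Ctsc, which encodes the lysosomal protease cathepsin C, had a ratio of 2.23 (1.18 to 4.52) in pericytes on 43 against 13 UMIs, and 2.80 (1.08 to 9.25) on 30 against 5 without cells with other RNA, with 0.382 (0.344 to 0.422) in alveolar fibroblasts. Lipg, the endothelial lipase gene, had 0.475 (0.290 to 0.769) in pericytes on 31 against 44 UMIs, and 0.368 (0.211 to 0.634) without cells with other RNA, with 8.25 (3.55 to 23.5) in alveolar fibroblasts. Adamts1 had 4.38 (1.52 to 17.3) in pericytes on 26 against 4 UMIs, and 3.27 (0.976 to 17.1) on 21 against 3 without cells with other RNA, with 0.374 (0.295 to 0.476) in myofibroblasts.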

How the results depend on the processing

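Over all alternatives, 500 values of named genes kept their direction and stayed within the counting interval, 50 moved beyond it and 5 changed direction. The 5 were on the lower side. The log2 ratio of Hopx was 1.86 and that of Ly6c1 0.019 with pericytes at 0 for Pecam1 and Cdh5. It was 0.0046 for Ehd4 without cells with endothelial RNA, and 0.12 for Hopx and 0.49 for Ehd4 without cells with RNA of any other type. Cxcl10 kept log2 ratios of 3.54 to 8.64 and Cxcl9 of 4.41 to 8.73. The highest value of each came with a pericyte sum of at least 8, over 1 Cherry_Negative Cxcl10 UMI and no Cxcl9 UMI. Of the counts and shares 111 stayed close and 13 moved. The profile of 123 higher and 36 lower genes was 281 and 83 at 2-fold and 49 and 13 with at least 200 CPM. Between libraries, 141 higher and 76 lower genes became 45 and 10 with at least 100 UMIs, 1852 and 2525 with no minimum, and the lower count 48 with each gene's top cell left out. With at least 100 UMIs the higher members were 3 chemokines, 8 interferon gamma genes and 3 type I genes, and with no minimum 10 chemokines. The numbers of genes measured under these minimums are not given here. These counts therefore cannot be set against a share over all genes. Genes with few UMIs could not be told from no change at this depth. No paired analysis was possible because each group is 1 library.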
